A study of Mus musculus with 16 samples.

Results

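Genes of germline genome defence were followed in mouse embryonic stem cells (ESCs) that lack DNA methylation maintenance, with and without the enzyme that makes small interfering RNAs. The 10 genes, chosen by name, were Piwil2, Mov10l1, Ddx4, Tdrd1, Tdrkh, Asz1, Mael, Dazl, Stk31 and Tex19.1, out of 26127 genes in the deposited table. In germ cells most of them serve the PIWI-interacting RNA (piRNA) pathway, in which a PIWI protein loaded with a small RNA finds and silences transposons, together with helicases, Tudor-domain proteins that bind the methylated tails of PIWI proteins, and scaffolds on the mitochondrial surface. Promoters of several genes of this kind are known to carry DNA methylation in somatic cells and to lose it in primordial germ cells, so their RNA is often used as a readout of methylation.

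The 16 libraries held total RNA depleted of ribosomal RNA. Their labels give the cell type ESC, the background E14 and 3 genotypes, which were wildtype (WT, 8 libraries numbered 1 to 4 with the letters A and B), Dnmt1-/- (Dnmt1 KO, 4 libraries, numbers 1 and 2) and Dicer/Dnmt1 -/- (Dicer/Dnmt1 KO, 4 libraries, numbers 1 and 2). The methods of the study start from a different background, C57BL/6 ESCs with loxP sites in both alleles of Dnmt1, in which Cre removes the gene when it is induced, and from them make, by CRISPR/Cas9, both a line that loses Dicer together with Dnmt1 on induction and a line from which Dicer is missing before Dnmt1 is removed. The labels do not say which of these lines the Dicer/Dnmt1 KO libraries came from. The origin of the cells is therefore uncertain, and no source used here says what the numbers and letters stand for, whether libraries came from separate cultures, or how long after deletion RNA was taken. Dnmt1 copies methylation onto newly made DNA, and Dicer, encoded by Dicer1, cuts double-stranded RNA into microRNAs and small interfering RNAs. Comparing the groups asks how these genes respond to loss of methylation maintenance, and whether their level differs once Dicer is lost as well.

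Libraries held 31.5 to 52.5 M reads. In WT, Dnmt1 KO and Dicer/Dnmt1 KO, Dnmt1 averaged 7.06, 4.40 and 4.57 on the log2 scale of reads per M reads (log2 RPM), and Dicer1 averaged 5.27, 5.46 and 3.87. Both WT libraries of number 4 stood apart, with Dnmt1 at 5.69 and 5.55 beside 7.40 to 7.66 in WT numbers 1 to 3. Dicer1 was low there too, at 4.56 to 4.78 beside 5.15 to 5.68. The count of members called against WT and each member's fold change are therefore also given without number 4. All 8 ESC marker genes, such as Pou5f1 and Nanog, were above 1 RPM in every library. In limma at an adjusted p under 0.05, 0 of them passed upward and 3 downward in Dnmt1 KO against WT, namely Sox2 (log2 fold change -0.67), Nanog (-0.64) and Klf4 (-0.55), and 0 upward and 1 downward, Tdgf1, in Dicer/Dnmt1 KO. Between the knockouts 3 of them, Nanog, Sox2 and Esrrb, were higher and Tdgf1 was lower in Dicer/Dnmt1 KO. With the A and B libraries of a number averaged, Nanog kept this call (limma adjusted p = 0.0407). Sox2 (0.0869), Esrrb (0.217) and Tdgf1 (0.223) lost it, and so did Klf4 in Dnmt1 KO against WT (0.12). The part of these markers in the members' results was not tested. In every library the spermatid genes Acrv1 and Prm1 had no reads. Of the same spermatogenic list, Tnp1 had at most 2 reads in a library and Zbtb16 at most 12. Stra8 and Sycp3, also of that list, had reads and are given below. The 10 feeder fibroblast genes summed to 252 to 746 RPM in WT, 399 to 522 in Dnmt1 KO and 517 to 892 in Dicer/Dnmt1 KO. Against WT, 4 of the 8 fibroblast genes in the test passed upward and 1 downward with Dnmt1 lost. With Dicer lost as well, 5 passed upward and 1 downward. Col1a1 (log2 fold change 1.40 and 1.72) and Acta2 (1.29 and 1.33) rose in both knockouts. So did Col1a2 (0.96 and 1.19) and Col3a1 (0.71 and 1.17). Postn rose with Dicer lost as well (0.77), and Tagln fell in both knockouts (-0.66 and -0.81). With A and B averaged, Col3a1 and Tagln were not called in Dnmt1 KO (limma adjusted p = 0.0826 and 0.116). Fn1, the highest gene of the list and the main part of the sums, was not called. Over all tested genes the shares passing upward and downward were 23.5% and 17.5%, 31.9% and 30.1%, and between the knockouts 16.9% and 19.4%. Lum and Dcn, matrix genes of the fibroblast list, stayed below 1 RPM in every library and did not enter the test. The part of feeder fibroblasts in the results was not tested. In RNA from whole cultures, fewer expressing cells and less RNA per cell cannot be told apart.

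The promoters of these genes were rich in CpG, the dinucleotide that carries DNA methylation. RefSeq windows running from 250 bases before to 50 after the start were found for 9 of the 10 genes in a table built on GRCm38.p6, and each matched NCBIM37, the build of the deposited coordinates, at exactly 1 place. Their CpG counts ran from 16 in Tex19.1 to 38 in Ddx4, with a median of 24 beside 7 over 27025 genes. Between 66.5% and 95.2% of all windows held fewer CpGs than a given member. The letters CACGTG, an E-box read the same on both strands, were present in 5 of the 9 windows (Ddx4, Mov10l1, Tdrd1, Mael and Stk31), against 7.24% of all windows and 11.5% of the 9050 windows with at least 16 CpGs. The letters GCGGGA, searched on both strands, were in 3 of the 9 (Ddx4, Mael and Tex19.1), against 20.1% and 46.0%, and neither motif contains the other. A match of letters is a description and not a binding site, and methylation of the windows was not measured here.

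The windows of 6 genes are printed because these genes differ in response. Asz1, Stk31 and Dazl were higher in both knockouts than in WT. Tex19.1 was higher in Dnmt1 KO, while in Dicer/Dnmt1 KO it overlapped with WT. Mael moved in opposite directions in the 2 knockouts, and Tdrd1 fell in both. Sequences run 5′ to 3′ along the gene's own strand on NCBIM37, and capitals mark each CpG.
Asz1 (chr6:18059012-18059311, minus strand): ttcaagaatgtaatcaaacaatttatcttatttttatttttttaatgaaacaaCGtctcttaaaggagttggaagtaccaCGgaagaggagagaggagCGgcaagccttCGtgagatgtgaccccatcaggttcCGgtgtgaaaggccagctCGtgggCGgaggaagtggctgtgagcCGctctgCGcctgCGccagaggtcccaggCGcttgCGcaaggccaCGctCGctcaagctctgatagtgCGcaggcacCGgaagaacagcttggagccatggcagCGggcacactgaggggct
Stk31 (chr6:49345288-49345587, plus strand): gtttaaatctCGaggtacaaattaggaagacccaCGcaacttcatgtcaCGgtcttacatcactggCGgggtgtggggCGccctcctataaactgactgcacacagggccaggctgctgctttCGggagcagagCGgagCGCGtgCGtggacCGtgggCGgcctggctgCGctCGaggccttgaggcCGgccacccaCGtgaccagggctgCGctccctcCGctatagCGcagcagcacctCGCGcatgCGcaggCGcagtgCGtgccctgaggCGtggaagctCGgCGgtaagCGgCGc
Dazl (chr17:50432896-50433195, minus strand): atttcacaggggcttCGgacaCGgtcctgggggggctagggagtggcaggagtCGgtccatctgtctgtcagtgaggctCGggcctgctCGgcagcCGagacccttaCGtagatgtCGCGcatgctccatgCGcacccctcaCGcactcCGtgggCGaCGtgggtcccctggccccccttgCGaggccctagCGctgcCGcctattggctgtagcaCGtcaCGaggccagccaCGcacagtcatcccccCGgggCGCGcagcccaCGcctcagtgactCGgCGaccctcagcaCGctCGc
Tex19.1 (chr11:121007207-121007506, plus strand): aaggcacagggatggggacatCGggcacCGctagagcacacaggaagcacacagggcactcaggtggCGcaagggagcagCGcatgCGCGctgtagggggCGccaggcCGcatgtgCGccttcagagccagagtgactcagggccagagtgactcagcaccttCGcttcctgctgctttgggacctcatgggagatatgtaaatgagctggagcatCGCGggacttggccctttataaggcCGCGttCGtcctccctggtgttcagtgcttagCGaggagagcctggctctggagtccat
Mael (chr1:168168826-168169125, minus strand): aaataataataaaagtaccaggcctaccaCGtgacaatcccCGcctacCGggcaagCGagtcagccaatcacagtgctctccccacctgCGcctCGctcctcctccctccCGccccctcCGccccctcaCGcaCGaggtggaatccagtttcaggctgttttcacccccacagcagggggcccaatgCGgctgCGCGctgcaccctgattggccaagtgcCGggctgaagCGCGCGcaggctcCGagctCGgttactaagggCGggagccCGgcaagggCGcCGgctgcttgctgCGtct
Tdrd1 (chr19:56900449-56900748, plus strand): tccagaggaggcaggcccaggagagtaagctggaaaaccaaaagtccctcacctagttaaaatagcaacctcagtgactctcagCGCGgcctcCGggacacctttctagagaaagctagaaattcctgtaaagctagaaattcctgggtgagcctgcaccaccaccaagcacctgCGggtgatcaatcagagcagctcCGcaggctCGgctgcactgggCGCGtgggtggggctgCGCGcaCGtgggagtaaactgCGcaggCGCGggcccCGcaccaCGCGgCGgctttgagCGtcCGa

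Compared as reads per kilobase of exon and M reads (RPKM), the genes spanned a wide range in WT. Tex19.1, a mammalian protein of germ cells, placenta and ESCs that restrains retrotransposons, had the highest level, with a mean of 9.18 RPKM (SD 2.62, n = 8). Mael averaged 5.10, Ddx4 2.99, Piwil2 2.21 and Dazl 1.42 RPKM, and of these neighbours Mael and Ddx4, and Ddx4 and Piwil2, had ranges that did not overlap, while Tex19.1 overlapped with Mael and Piwil2 with Dazl. Stk31 at 0.593, Mov10l1 at 0.491, Tdrkh at 0.435 and Tdrd1 at 0.343 RPKM had overlapping ranges and cannot be ranked beyond their spread. Asz1 was last, with a single read in the 8 WT libraries. In Dnmt1 KO the order changed in the middle, where Dazl (4.30 RPKM, SD 0.33, n = 4) stood above Ddx4 (3.16, SD 0.45) with no overlap between their libraries, while Tex19.1 at 22.7 RPKM (SD 1.78) stayed first and Tdrd1 at 0.120 RPKM was last. In Dicer/Dnmt1 KO Mael, second in the other groups, averaged 2.70 RPKM and overlapped with Piwil2 at 2.82 and Dazl at 3.53 RPKM.

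**Figure D1:**
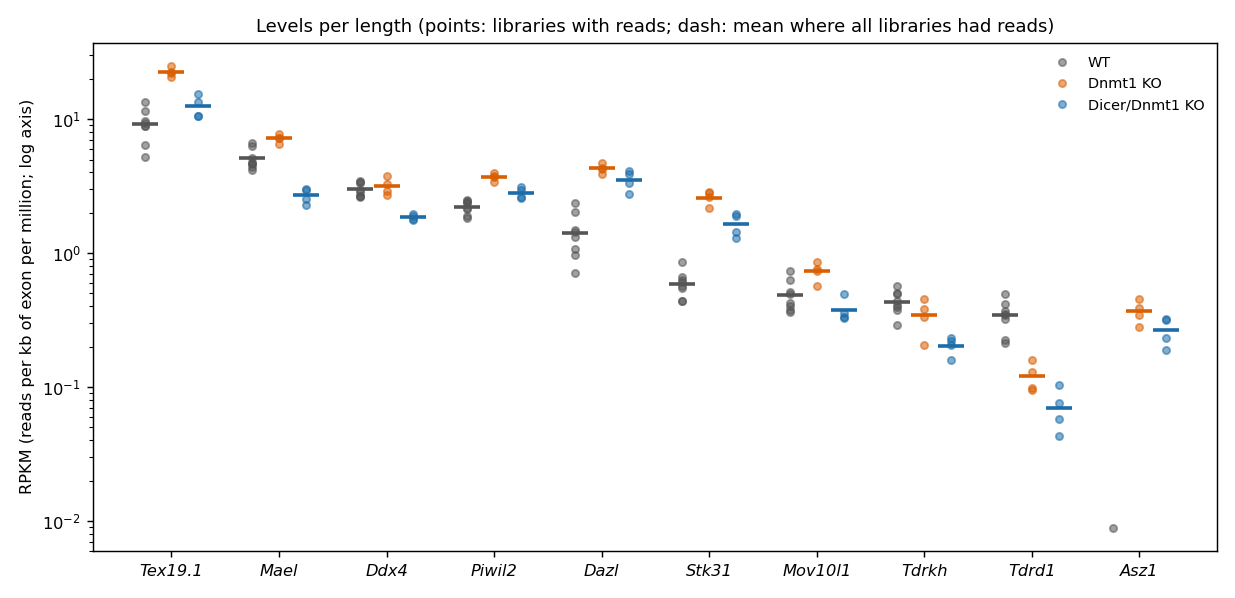
Reads per kilobase of exon per M reads (RPKM, log axis) for the 10 genes, ordered by their WT mean, with a point for each library that had reads and a dash for the mean of a group in which all libraries had reads. Tex19.1 was highest in each group, and Asz1 has a single WT point because the other 7 WT libraries had no reads.

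In Dnmt1 KO, 6 members rose and 1 fell among the 9 that could be tested, while Asz1, above 1 RPM in 2 libraries (Dnmt1 KO 1A and 2A), did not reach the 4 needed to enter the test and is given by its reads. At the same threshold 23.5% of all 12892 genes in the test passed upward and 17.5% downward. The threshold was a Benjamini-Hochberg (BH) adjusted p under 0.05 from limma on log2 RPM, over all genes above 1 RPM in at least 4 libraries. In Dicer/Dnmt1 KO against WT 4 members rose and 4 fell, beside 31.9% upward and 30.1% downward over all tested genes. Between the knockouts 8 members were lower and 0 higher in Dicer/Dnmt1 KO, beside 16.9% upward and 19.4% downward over all tested genes. The median log2 fold change of the 9 members was 0.61, -0.35 and -0.76 in the 3 comparisons, beside 0.04, 0.02 and -0.01 over all tested genes. Of the 9, 7 were above 1 RPM in every library. Tdrd1 (8 WT libraries, 0 knockout libraries) and Tdrkh (8 WT and 3 Dnmt1 KO libraries) entered the test through WT, the group in which they were highest. Their falls are no support for the counts or for the medians. In Dicer/Dnmt1 KO against WT the other 7 members had log2 fold changes of 1.48, 1.39, 0.48, 0.36, -0.35, -0.68 and -0.91. The negative median there thus depended on Tdrd1 and Tdrkh. With no filter on low values, over 21545 genes with a read, all 10 members were fitted and the counts were 7 higher and 1 lower, 4 and 4, and 0 and 6, beside 17.3% and 10.9%, 23.8% and 19.0%, and 9.69% and 11.3% of all genes. Since the comparisons share groups, these counts are not independent of each other.

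The A and B libraries that carry 1 number differed less than libraries of different numbers in all but 1 case (WT number 1). The correlation within such pairs, as estimated by limma, was 0.667. The main fit counts A and B as separate, so its SEs and p-values rest on replicates that were not independent. For Dazl in Dnmt1 KO against WT the SE was 0.24 in the main fit and 0.32 with A and B averaged. With A and B averaged, 5 members passed in Dnmt1 KO, 6 in Dicer/Dnmt1 KO against WT and 2 between the knockouts, where Ddx4 and Mael remained. Calls over all tested genes fell as well, from 41.0%, 61.9% and 36.3% in the 3 comparisons to 17.7%, 39.8% and 9.5%. With the number as a random block in limma the members' counts were 6, 7 and 4, beside 21.1%, 44.6% and 16.4% of all tested genes. The comparison between the knockouts thus depended most on this choice, for all tested genes as for the members, and adjusted p-values with A and B averaged are given beside its members. Leaving out WT number 4, an alternative chosen after seeing the data, gave 7 and 8 members against WT, beside 44.9% and 61.2% of all tested genes.

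**Figure D2:**
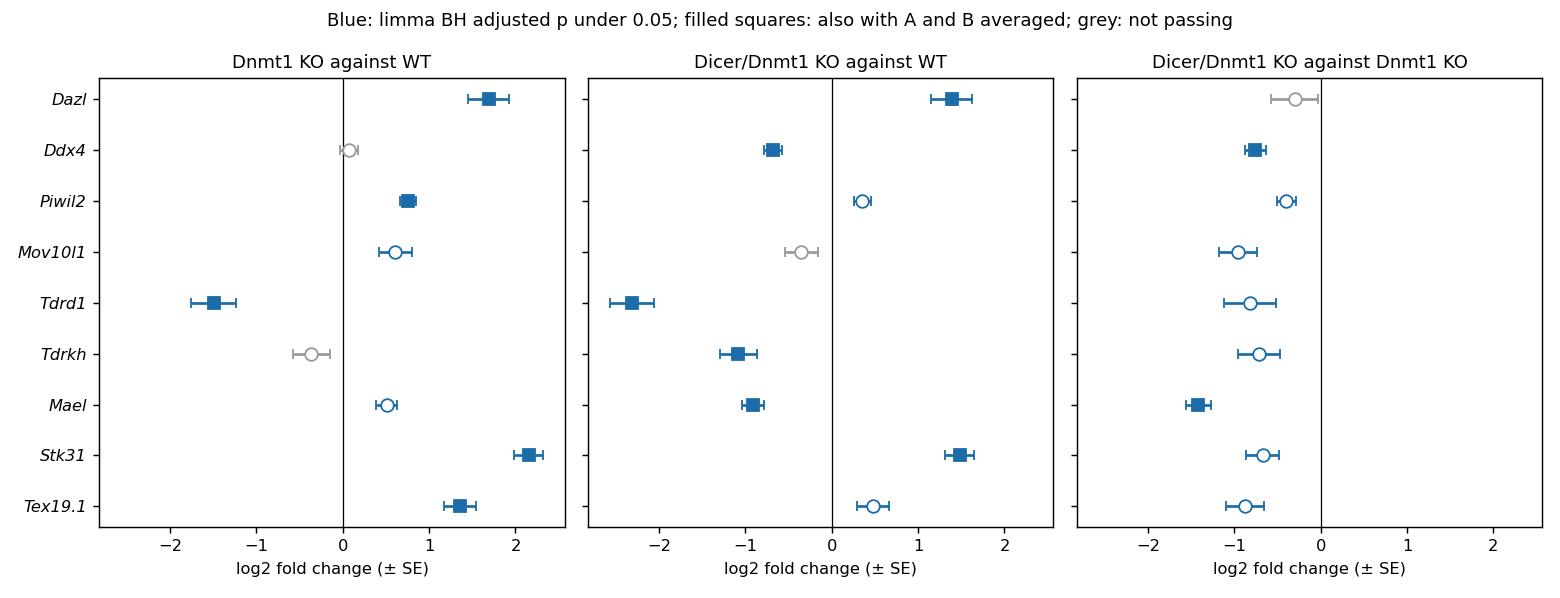
Log2 fold change of the 9 tested members in the 3 comparisons, with bars for the standard error (SE). Blue symbols passed the limma test, filled squares also passed with libraries A and B averaged, and grey circles did not pass; between the knockouts all 9 values are below 0 and 2 are filled.

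Among the PIWI protein and its helicases, Piwil2 rose in both knockouts, Mov10l1 rose in Dnmt1 KO, and Ddx4 fell in Dicer/Dnmt1 KO. Piwil2 (ENSMUSG00000033644, chromosome 14, 70772287 to 70828901, minus strand, 23 exons) encodes MILI, the PIWI protein that cuts transposon RNA with its piRNA guide. Its log2 RPM was 3.16 to 3.61 in WT (median 3.48), 4.21, 4.19, 4.29 and 4.06 in Dnmt1 KO, and 3.68, 3.86, 3.68 and 3.93 in Dicer/Dnmt1 KO. All Dnmt1 KO libraries lay above all others, and all Dicer/Dnmt1 KO libraries lay above all WT libraries. The log2 fold change was 0.75 in Dnmt1 KO (SE 0.09, limma adjusted p = 7.03e-06) and 0.36 in Dicer/Dnmt1 KO (SE 0.09, adjusted p = 0.00353) against WT. The smaller increase was not called with A and B averaged (adjusted p = 0.0643) or with a trend on exonic length removed (0.19, adjusted p = 0.0956). Between the knockouts Piwil2 fell by 0.40 (SE 0.11, adjusted p = 0.00869, or 0.138 with A and B averaged).

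Mov10l1 (ENSMUSG00000015365, chromosome 15, 88813339 to 88885582, plus strand) encodes the RNA helicase that hands piRNA precursors to the pathway. It measured 0.61 to 1.63 log2 RPM in WT (median 0.95), 1.26, 1.69, 1.86 and 1.64 in Dnmt1 KO, and 0.46, 0.59, 0.50 and 1.07 in Dicer/Dnmt1 KO. Both knockouts overlapped with WT, where number 2 was high and number 1 low, but not with each other. The increase in Dnmt1 KO was 0.61 (SE 0.19, limma adjusted p = 0.0174) and was not called with A and B averaged (adjusted p = 0.13) or without Dnmt1 KO 2A (0.53, adjusted p = 0.073). Against WT the Dicer/Dnmt1 KO value was -0.35 (SE 0.19, adjusted p = 0.122). Between the knockouts Mov10l1 fell by 0.96 (SE 0.22, adjusted p = 0.00288, or 0.0687 with A and B averaged).

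Ddx4 (ENSMUSG00000021758, chromosome 13, 113388541 to 113442518, minus strand, 22 exons) encodes the germ cell helicase VASA, a core part of the cytoplasmic granules in which piRNAs are made. Dnmt1 KO libraries measured 2.95, 3.05, 3.22 and 3.41 log2 RPM, within and around the WT range of 2.90 to 3.30 (median 3.05). Dicer/Dnmt1 KO libraries measured 2.43, 2.48, 2.34 and 2.36, below every library of the other groups. The difference between Dnmt1 KO and WT was 0.07 (SE 0.10, limma adjusted p = 0.594), and its sign turned without Dnmt1 KO 2B (-0.01) and with a length trend removed (-0.01). In Dicer/Dnmt1 KO Ddx4 fell by 0.68 against WT (SE 0.10, adjusted p = 2.39e-05) and fell by 0.76 against Dnmt1 KO (SE 0.12, adjusted p = 0.000118, or 0.0316 with A and B averaged). In Dnmt1 KO, where all 4 libraries were above WT in Piwil2, Ddx4 thus overlapped with WT.

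The scaffold genes went separate ways: Tdrd1 fell in both knockouts, Tdrkh fell in Dicer/Dnmt1 KO, and Asz1 went from 1 read over all WT libraries to 20 or more in each knockout library. Tdrd1 (ENSMUSG00000025081, chromosome 19, 56900699 to 56944502, plus strand, 25 exons) encodes a Tudor-domain protein that binds the arginine-methylated tail of MILI. Its log2 RPM was 0.23 to 1.44 in WT (median 0.92), -0.52, -0.21, -0.89 and -0.96 in Dnmt1 KO, and -0.82, -1.67, -2.09 and -1.27 in Dicer/Dnmt1 KO. Every knockout library was below every WT library, and the knockouts overlapped. These levels rest on 49 to 105 reads per WT library, 17 to 36 per Dnmt1 KO library and 9 to 21 per Dicer/Dnmt1 KO library.

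Against WT, Tdrd1 fell by 1.49 in Dnmt1 KO (SE 0.26, limma adjusted p = 0.000199) and its log2 fold change was -2.31 in Dicer/Dnmt1 KO (SE 0.26, adjusted p = 8.81e-07), the lowest fold changes among the tested members. Tdrd1 entered this test through WT alone, and in the fit with no filter on low values the adjusted p was 0.000596 and 4.02e-06. Between the knockouts the difference was -0.82 (SE 0.30, adjusted p = 0.0404), which did not pass with A and B averaged (adjusted p = 0.159), on the recovered reads with voom (adjusted p = 0.114), with no filter (adjusted p = 0.079), or without any one of Dnmt1 KO 1A, Dnmt1 KO 1B, Dicer/Dnmt1 KO 1B and Dicer/Dnmt1 KO 2A (adjusted p of 0.0895 to 0.131).

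Tdrkh (ENSMUSG00000041912, chromosome 3, 94217218 to 94236555, plus strand, 14 exons) encodes a Tudor-domain protein that holds PIWI proteins at mitochondria while piRNA ends are trimmed. WT libraries measured 0.14 to 1.10 log2 RPM (median 0.69) and Dnmt1 KO libraries -0.34, 0.55, 0.79 and 0.35, with library 1A the low one. Dicer/Dnmt1 KO libraries measured -0.26, -0.18, -0.35 and -0.73, below every WT library, and overlapped with Dnmt1 KO through 1A. Tdrkh in Dicer/Dnmt1 KO fell by 1.08 against WT (SE 0.21, limma adjusted p = 0.000289, or 0.000873 with no filter on low values). The difference between Dnmt1 KO and WT was -0.36 (SE 0.21, adjusted p = 0.181) and passed with quantile normalization (-0.62, adjusted p = 0.0289). Between the knockouts it was -0.72 (SE 0.24, adjusted p = 0.0284, or 0.138 with A and B averaged), and it did not pass with no filter (adjusted p = 0.0592) or without Dnmt1 KO 1B, Dnmt1 KO 2A, Dnmt1 KO 2B or Dicer/Dnmt1 KO 2B (adjusted p of 0.0533 to 0.0948).

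Asz1 (ENSMUSG00000010796, chromosome 6, 18000964 to 18059061, minus strand, 11 exons) encodes GASZ, a scaffold of the cement between germ cell mitochondria. It had 1 read in WT 2A and 0 reads in each of the other 7 WT libraries, or 1 read in 330 M. Dnmt1 KO libraries held 36, 33, 48 and 32 reads and Dicer/Dnmt1 KO libraries 20, 21, 35 and 28, so that all 8 knockout libraries stood far above WT. Relative to the reads of each group, Asz1 was 340-fold higher in Dnmt1 KO (exact binomial 95% interval 60.1 to 13530, counting error only) and 248-fold higher in Dicer/Dnmt1 KO (43.5 to 9880) than in WT. Without WT 2A, 0 reads remain in WT, and the 3 reads that such a count allows over the group make the level at least 99.7-fold and 72.6-fold higher. The knockout level was low, at 0.367 RPKM (SD 0.07, n = 4) in Dnmt1 KO and 0.266 (SD 0.06, n = 4) in Dicer/Dnmt1 KO. The ratio of Dicer/Dnmt1 KO to Dnmt1 KO was 0.728 (0.561 to 0.942 by counting error alone), but the libraries overlapped, and with no filter on low values limma gave an adjusted p of 0.303.

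Mael moved in opposite directions in the 2 knockouts. Mael (ENSMUSG00000040629, chromosome 1, 168131516 to 168168875, minus strand, 12 exons) encodes Maelstrom, a granule protein needed for transposon silencing in the male germline. Its log2 RPM was 2.70 to 3.37 in WT (median 2.86), 3.50, 3.58, 3.33 and 3.48 in Dnmt1 KO, and 2.22, 2.19, 1.97 and 1.82 in Dicer/Dnmt1 KO. Dnmt1 KO overlapped with WT only through WT 4A, and every Dicer/Dnmt1 KO library was below every other library. In Dnmt1 KO Mael rose by 0.51 (SE 0.12, limma adjusted p = 0.0032), by 0.63 without WT number 4 (adjusted p = 5.98e-05), and was not called with A and B averaged (adjusted p = 0.0799). In Dicer/Dnmt1 KO it fell by 0.91 against WT (SE 0.12, adjusted p = 7.96e-06). The fall of 1.42 from Dnmt1 KO (SE 0.14, adjusted p = 1.67e-06) was the largest among the members between the knockouts, and it passed with A and B averaged (adjusted p = 0.00613).

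**Figure D3:**
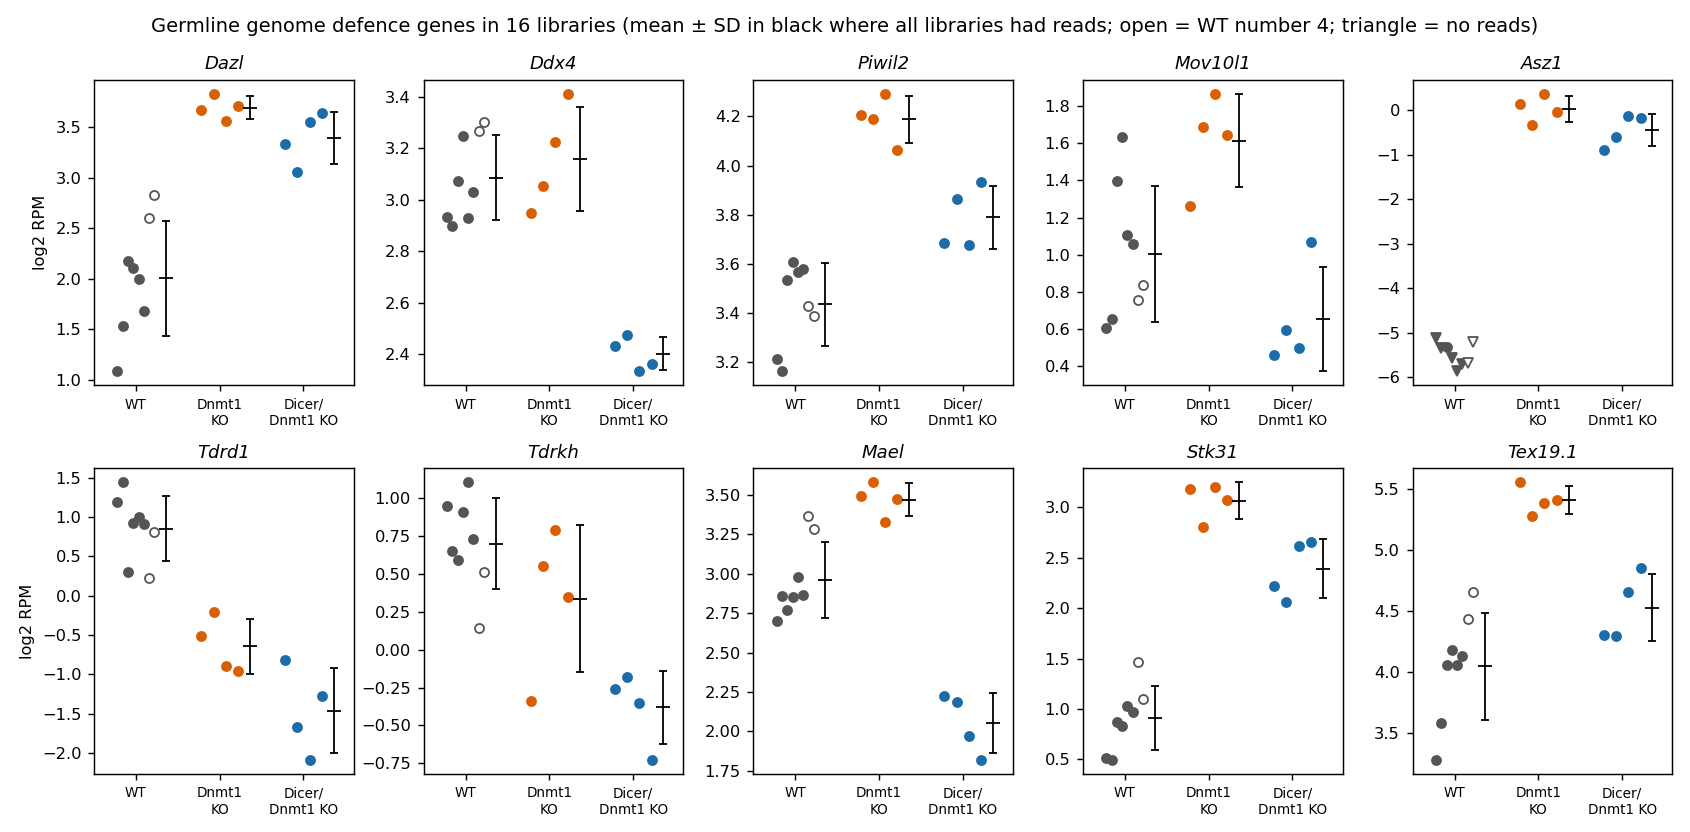
Log2 reads per M reads (RPM) of the 10 genes in each of the 16 libraries by group, with the mean ± SD in black where all libraries had reads, WT number 4 as open symbols and libraries without reads as triangles at the value written in the deposited table. Asz1, Stk31 and Dazl separate both knockouts upward from WT, Tdrd1 downward, and Mael and Ddx4 place Dicer/Dnmt1 KO alone at the bottom.

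The germ cell genes Stk31, Dazl and Tex19.1 had the largest increases among the tested members in Dnmt1 KO. Stk31 (ENSMUSG00000023403, chromosome 6, 49345603 to 49419500, plus strand, 24 exons) encodes a Tudor-domain protein of the testis with a kinase-like region. It measured 0.50 to 1.47 log2 RPM in WT (median 0.92), 3.18, 2.80, 3.21 and 3.07 in Dnmt1 KO, and 2.22, 2.06, 2.62 and 2.66 in Dicer/Dnmt1 KO. The 3 groups did not overlap. Its log2 fold change of 2.15 in Dnmt1 KO (SE 0.17, limma adjusted p = 2.74e-08), or 4.45-fold, and of 1.48 in Dicer/Dnmt1 KO (SE 0.17, adjusted p = 9.93e-07) were the largest increases among the tested members. Between the knockouts Stk31 fell by 0.67 (SE 0.19, adjusted p = 0.012, or 0.135 with A and B averaged). The annotation has Gm17060 on the opposite strand across part of Stk31, and whether the counting used strand is not given in the sources used here.

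Dazl (ENSMUSG00000010592, chromosome 17, 50418719 to 50432924, minus strand, 11 exons) encodes the RNA-binding protein that licenses germ cells for gamete formation, and its promoter is a classic target of DNA methylation. The WT range was wide, from 1.09 to 2.83 log2 RPM (median 2.06), with number 4 at the top. Dnmt1 KO libraries measured 3.67, 3.83, 3.56 and 3.71 and Dicer/Dnmt1 KO libraries 3.34, 3.05, 3.55 and 3.64, all above WT and overlapping with each other. Dazl rose by 1.69 in Dnmt1 KO (SE 0.24, limma adjusted p = 2.41e-05) and by 1.39 in Dicer/Dnmt1 KO (SE 0.24, adjusted p = 7.92e-05). It was the only tested member without a call between the knockouts, where the difference was -0.30 (SE 0.27, adjusted p = 0.413).

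Tex19.1 (ENSMUSG00000039329, chromosome 11, 121007457 to 121009633, plus strand, 3 exons) measured 3.28 to 4.65 log2 RPM in WT (median 4.09), 5.55, 5.28, 5.38 and 5.41 in Dnmt1 KO, and 4.30, 4.30, 4.65 and 4.85 in Dicer/Dnmt1 KO. Dnmt1 KO lay above all other libraries, and Dicer/Dnmt1 KO overlapped with WT through number 4 alone. Tex19.1 rose by 1.36 in Dnmt1 KO (SE 0.19, limma adjusted p = 2.41e-05). In Dicer/Dnmt1 KO the increase was 0.48 (SE 0.19, adjusted p = 0.0368), with 0.64 (adjusted p = 0.0019) when WT number 4 was left out, 0.21 (adjusted p = 0.203) against WT numbers 3 and 4 only, and no call with A and B averaged (adjusted p = 0.161) or with no filter on low values (adjusted p = 0.0548). The call was also lost without WT 1B, Dicer/Dnmt1 KO 2A or Dicer/Dnmt1 KO 2B (adjusted p of 0.0646 to 0.137). Between the knockouts Tex19.1 fell by 0.88 (SE 0.22, adjusted p = 0.00487, or 0.0895 with A and B averaged). Its neighbour in name, the paralog Tex19.2, averaged -0.69, -1.46 and -3.08 log2 RPM in the 3 groups and was too low to be tested, and reads shared between the 2 copies could be split or lost.

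WT number 4, the pair of WT libraries with the least Dnmt1 and the least Dicer1 RNA, also stood apart in these genes. Dazl was 2.61 and 2.83 there beside at most 2.18 in WT numbers 1 to 3, Tex19.1 was 4.44 and 4.65 beside at most 4.18, Mael 3.37 and 3.28 beside at most 2.98, and Stk31 1.47 and 1.10 beside at most 1.03 log2 RPM. Counting Ddx4, both number 4 libraries were above all other WT libraries in 5 of the 10 members and below them in 1, Tdrkh. Over all tested genes these shares were 19.99% above and 28.8% below, so number 4 differed from the other WT libraries well beyond these genes. Piwil2 was 3.43 and 3.39, within the range of the other WT libraries, and Asz1 had 0 reads in both. These libraries were not grouped or tested as a condition of their own.

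With WT number 4 left out, each of the 9 tested members kept its direction and its call against WT. The log2 fold changes in Dnmt1 KO were then 2.28 for Stk31, 1.93 for Dazl, 1.52 for Tex19.1, 0.75 for Piwil2, 0.63 for Mael, 0.54 for Mov10l1, 0.14 for Ddx4, -0.49 for Tdrkh and -1.60 for Tdrd1. The values for Dicer/Dnmt1 KO were 1.61 for Stk31, 1.63 for Dazl, 0.64 for Tex19.1, 0.35 for Piwil2, -0.79 for Mael, -0.42 for Mov10l1, -0.62 for Ddx4, -1.20 for Tdrkh and -2.42 for Tdrd1. The increases of Dazl, Stk31 and Tex19.1 were thus larger without these libraries, and that of Mov10l1 in Dnmt1 KO smaller (adjusted p = 0.0386).

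**Figure D4:**
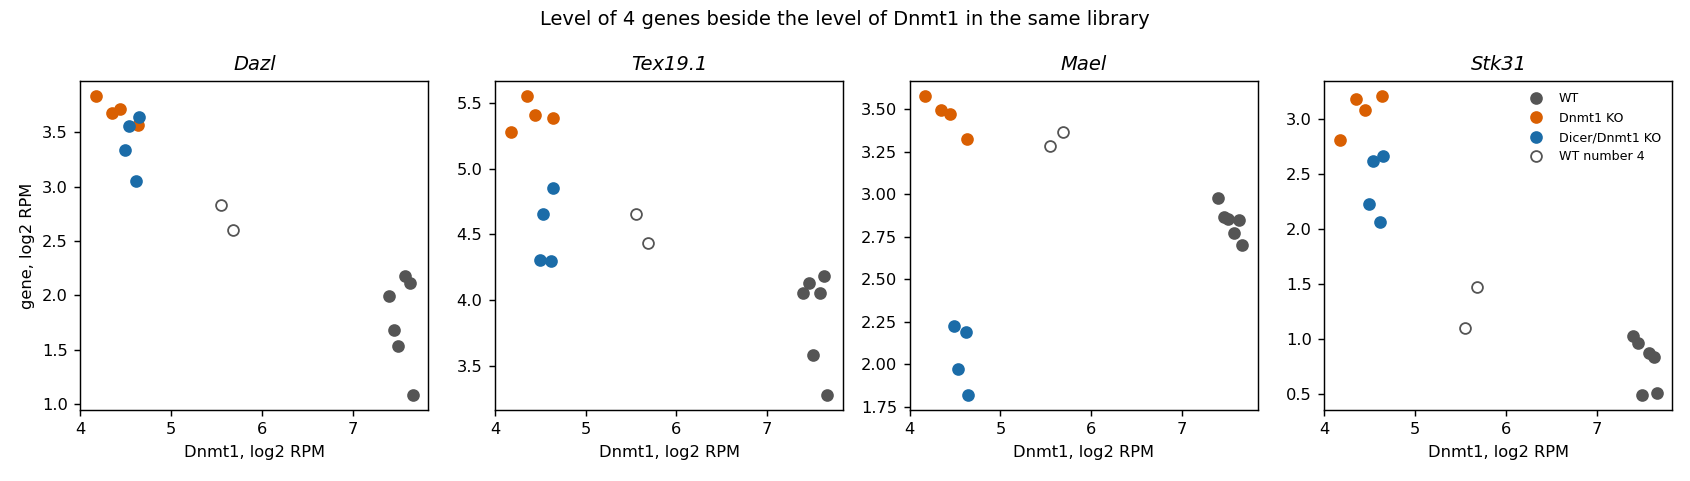
Log2 RPM of Dazl, Tex19.1, Mael and Stk31 against log2 RPM of Dnmt1 in the same library, with a point per library coloured by group and WT number 4 open. WT number 4 lies between the other WT libraries and both knockouts on the Dnmt1 axis and above the other WT libraries in all 4 genes, and the knockouts, which overlap in Dnmt1, separate in Mael.

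Other genes of the pathway moved in mixed directions. From a list of 28 further genome defence genes, 26 were in the table and 19 could be tested. In Dnmt1 KO 9 were higher and 4 lower than in WT, in Dicer/Dnmt1 KO 7 were higher and 6 lower, and between the knockouts 2 were higher and 7 lower in Dicer/Dnmt1 KO. Their median log2 fold changes were 0.17, 0.00 and -0.17, and the shares of all tested genes called are those given for the members. Of the 19, Fkbp6, Piwil4 and Nanos3 entered the test through the knockouts, and Pld6 and Exd1 through WT. With no filter the counts over 26 genes were 10 and 4, 7 and 7, and 2 and 7. The shares of all genes were then 17.3% and 10.9%, 23.8% and 19.0%, and 9.69% and 11.3%. The 8 named here are those with the largest change in any comparison, and for Piwil4 and Nanos3 the p-values come from the fit with no filter. Without WT number 4 the calls of the 8 against WT stayed as they were.

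Fkbp6, a chaperone partner of PIWI loading, resembled Asz1. It had 0 to 5 reads in a WT library, 126 to 192 in a Dnmt1 KO library and 72 to 92 in a Dicer/Dnmt1 KO library, and relative to all reads it was 70.4-fold (45.6 to 114) and 36.9-fold (23.7 to 60.4) higher than in WT, by exact binomial 95% intervals for counting error. No WT library was above 1 RPM, so Fkbp6 entered the test through the knockouts alone and no p is given for its increase.

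Like all members but Tdrd1 and Tdrkh, and like Fkbp6, 3 genes of piRNA-guided silencing had their highest mean in Dnmt1 KO. Tex15, needed for piRNA-directed DNA methylation, averaged 5.52 log2 RPM in WT, 6.28 with Dnmt1 lost and 4.68 with both lost, and it rose by 0.76 and fell by 0.84 against WT (limma adjusted p = 8.27e-06 and 1.19e-06). Dnmt3l, the cofactor of new DNA methylation, averaged 6.67, 7.83 and 6.49, with an increase of 1.16 in Dnmt1 KO (adjusted p = 7.37e-07) and a difference of -0.18 in Dicer/Dnmt1 KO (adjusted p = 0.203). Piwil4, which encodes the nuclear PIWI protein MIWI2, averaged -0.55, 1.06 and -0.47, with an increase of 1.61 in Dnmt1 KO (adjusted p = 0.00235) and a difference of 0.08 in Dicer/Dnmt1 KO (adjusted p = 0.864). From Dnmt1 KO to Dicer/Dnmt1 KO the log2 fold changes of these genes were -1.59, -1.34 and -1.53 (limma adjusted p = 3.54e-08, 1.96e-06 and 0.0128).

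Tdrd5, a Tudor-domain gene, followed Tdrd1, with group means of 2.88, 2.09 and 1.40 log2 RPM and log2 fold changes of -0.79 and -1.48 against WT (limma adjusted p = 1.15e-05 and 2.66e-09). Mov10, the broadly expressed relative of Mov10l1, was called only with Dicer lost as well: it averaged 5.05, 4.91 and 6.39, and rose by 1.48 from Dnmt1 KO to Dicer/Dnmt1 KO (adjusted p = 8e-05), where Mov10l1 fell. Nanos3, a germ cell survival factor, averaged -1.35, -0.19 and 0.56, and rose by 1.16 and 1.91 against WT (adjusted p = 0.00761 and 7.1e-05). D1Pas1, a testis helicase whose close X-linked relative may share its reads, averaged 1.19, 2.38 and 2.51, and rose by 1.19 and 1.32 (adjusted p = 0.000363 and 6.69e-05).

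**Figure D5:**
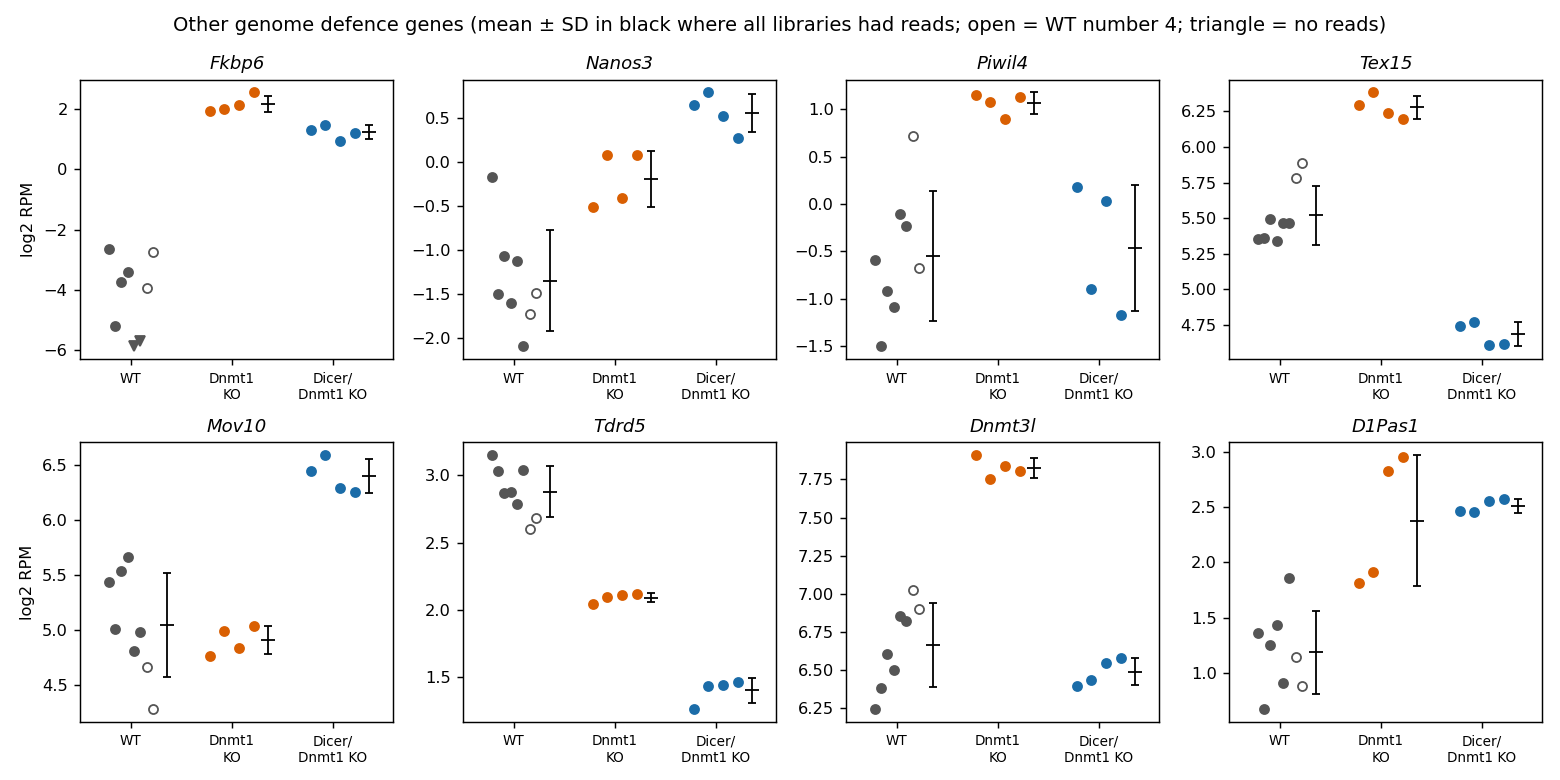
Log2 RPM of the 8 named genome defence genes outside the members in each library, with the mean ± SD in black where all libraries had reads, WT number 4 open and libraries without reads as triangles. Fkbp6 rises from 0 to 5 reads in WT to at least 72 in every knockout library, Tex15 and Dnmt3l peak in Dnmt1 KO, and Mov10 is highest in Dicer/Dnmt1 KO.

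Markers of germ cells moved in mixed directions. Of 5 tested primordial germ cell genes, 1 was higher and 2 lower in Dnmt1 KO than in WT, beside 23.5% and 17.5% of all tested genes. With Dicer lost as well 3 were higher and 0 lower, beside 31.9% and 30.1%. Nanos3 is the higher gene in Dnmt1 KO and 1 of these 3, and it entered the test through the knockouts. Between the knockouts 3 were higher and 0 lower in Dicer/Dnmt1 KO, beside 16.9% and 19.4%. They were Prdm14 (log2 fold change 1.53), Kit (1.08) and Prdm1 (0.76). With A and B averaged, Prdm1 was not called there (limma adjusted p = 0.164). Nor were the lower genes in Dnmt1 KO, Kit and Dppa3 (0.0534 and 0.211). With no filter on low values the counts were again 1 and 2, 3 and 0, and 3 and 0. Over all genes the shares were then 17.3% and 10.9%, 23.8% and 19.0%, and 9.69% and 11.3%. The list summed to 53.7 to 87.1 RPM in WT, 47.0 to 55.2 in Dnmt1 KO and 89.3 to 99.4 in Dicer/Dnmt1 KO. Spermatogenic genes summed to 6.12 to 12.5, 6.69 to 9.46 and 6.86 to 10.2 RPM, with 2 of 6 tested, of which 1 was higher and 1 lower in either knockout against WT. The higher gene, Stra8, averaged 1.47, 5.72 and 7.18 RPM in the 3 groups. Sycp3, the lower gene, averaged 7.59, 2.24 and 0.989 RPM, so the sums hide changes in opposite directions. Oocyte genes summed to 0.650 to 1.08, 2.22 to 3.46 and 1.45 to 2.93 RPM, and the single tested gene, Zp3, entered the test through the knockouts, as no WT library was above 1 RPM.

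As a description of likeness, each tested gene outside the members was compared with the mean of the 9 members after each was set to the same scale. Over the 16 libraries the highest Pearson correlations were with Snx24 (0.963), Mtap (0.954), Bop1 (0.933), Wdr3 (0.932) and Itpk1 (0.932). Their values share the 3 groups and the library scaling with the members. Among the 9 tested members themselves, Stk31 varied most like Dazl (0.941), and Mael most like Ddx4 (0.875), while Tdrd1 ran opposite to Dazl (-0.823) and Stk31 (-0.823).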

How the data were processed

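Reads were trimmed with Trim Galore and aligned with TopHat to NCBIM37, alignments of mapping quality under 20 were discarded, and genes were quantified in SeqMonk by the authors, whose deposited values are log2 reads per M reads (log2 RPM) per library. The submitters' processing notes list Trim Galore 0.3.5 and TopHat2 2.0.11. A gene without reads is written as 0.9 read, and the linear values were whole reads (within 0.02, for up to 10000 reads) for 100% of values. A further 35 value columns were not used here.

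Genes above 1 RPM in at least 4 of 16 libraries (12892) were fitted with limma 3.58.1 in R 4.3.3, with a mean per group, an intensity trend and BH adjustment over all tested genes. The limma fit was tested on simulated data in which all libraries were independent. The correlation within A and B pairs was therefore not covered by that test. RPKM used the union of exons in GENCODE M1. Members and lists were chosen with earlier results of these data known. Genes named were the 10 members, Dnmt1, Dicer1, at most 8 called genes of the further genome defence list by largest change, and the 5 most alike. P-values measure the spread between these libraries, which may be technical. Intervals and floors (0.0571 to 0.0954 RPM for 3 reads) cover counting error only.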

Additional observations from a re-analysis of the deposited data

How the results depend on the processing

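The count of members called moved by over 1.5 times under a few alternatives. In Dnmt1 KO against WT, 7 became 4 in the letter A libraries alone and 4 under a 2-fold minimum change. In Dicer/Dnmt1 KO against WT, 8 became 5 and 4 under the same alternatives. Calls over all tested genes went from 41.0% to 14.2% and 6.99%, and from 61.9% to 31.0% and 12.8%. Between the knockouts, 8 became 2 with A and B averaged, 2 with letter A only, 2 with letter B only, 4 with A and B as a random block and 1 with a 2-fold minimum, while calls over all tested genes went from 36.3% to 9.5%, 7.38%, 5.17%, 16.4% and 4.57%. Averaging and single letters leave fewer samples, and the main fit counts A and B as separate. The part of either in these changes was not tested. Leaving out each library in turn gave 6 to 7, 7 to 8 and 6 to 8 members. Calls over all tested genes were then 31.4% to 43.6%, 55.1% to 64.9% and 28.6% to 33.0%. Ddx4 in Dnmt1 KO, which was not called, ranged from -0.00996 (without Dnmt1 KO 2B) to 0.144 when a library was left out, and was -0.0079 with the length trend removed. Of 693 values of single members under alternatives, 625 kept direction and call, 62 lost the call, 4 gained it and 2 changed sign.

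Same-numbered libraries of different groups did not deviate together throughout. The median correlation of their deviations was -0.13 between the knockouts (0.15 for different numbers), 0.13 between Dnmt1 KO and WT (-0.02) and 0.14 between Dicer/Dnmt1 KO and WT (-0.01), and single pairs ran from -0.42 to 0.47, so the numbers were not used as pairs. With the replicate block the counts were 7, 9 and 8 members, beside 50.7%, 60.7% and 51.9% of all tested genes. Reads of 9 to 36 per knockout library limit Tdrd1, and the sequencing depth leaves Asz1 in WT at its floor.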
